A study of Mus musculus with 14 samples.

Results

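Loss of Prmt5 in erythroid cells of the mouse fetal liver was examined in the 4 Ter119pos libraries of a series of 14 RNA sequencing libraries. Ter119 is a surface antigen of maturing red cell precursors, and the members were chosen by the labelled fraction and genotype alone, as every Ter119pos library from E14.5 embryos. The mutant group (KO) carried the alleles PRMT5fl/fl with Vav-cre, a recombinase transgene driven by the Vav promoter and active across the blood system, and the control group (WT) carried PRMT5fl/fl without the recombinase. KO library A came from mouse 1 and KO library B from mouse 2, while WT library A came from mouse 5 and WT library B from mouse 4. Each group thus held 2 libraries from 2 animals. The 4 Ter119neg libraries of the same tissue entered the statistical model for the estimate of spread, and also the filter on low counts and the normalisation. The contrast itself compared the Ter119pos groups only.

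Prmt5 encodes a type II protein arginine methyltransferase, which places symmetric dimethylarginine on histones, Sm proteins of the spliceosome and other proteins, and works in a complex with the protein encoded by Wdr77, termed the methylosome. Red cell precursors of the fetal liver divide while they fill with hemoglobin, build the spectrin skeleton of the red cell membrane, condense and expel the nucleus, and clear their organelles. The transcription factor p53 restrains such dividing cells by switching on genes of cell cycle arrest and cell death.

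All libraries carried erythroid transcripts. The 12 erythroid markers summed to 195310.0 and 252549 CPM (counts scaled to a common TMM-normalised library total) in KO and 209270.0 and 182933 CPM in WT, and the groups overlapped. Most of each sum came from the globin Hbb-bs, at 131033 and 169547 CPM in KO and 120695 and 108395 CPM in WT. Taken gene by gene, 1 of the 12 was called higher and 6 lower (edgeR adjusted p under 0.05), with a median log2 fold change of -0.66. The 14 markers of mast cells, basophils and eosinophils summed to 2.80 and 6.13 CPM in KO and 4.57 and 3.88 CPM in WT, and 3 of them (Fcer1a, Mcpt4 and Tpsb2) were at 0 counts in all 4 libraries. The 19 lymphoid markers summed to 2.38 and 2.33 CPM in KO and 7.42 and 3.24 CPM in WT, lower in KO, and 3 of them (Cd3e, Dntt and Klrb1c) were at 0 counts throughout. The 18 macrophage markers summed to 139 and 157 CPM in KO and 242 and 173 CPM in WT, and the 19 granulocyte and monocyte markers to 53.4 and 117 and 234 and 119 CPM, both lower in KO. The most abundant macrophage marker was Slc40a1, at 61.9 and 57.8 CPM in KO and 116.8 and 94.3 CPM in WT. The separation of the macrophage sums rested on this gene, which is also an iron exporter. The 17 hepatoblast markers summed to 65.1 and 93.9 CPM in KO and 46.8 and 33.9 CPM in WT, the 15 endothelial and stromal markers to 33.5 and 56.9 and 14.3 and 9.24 CPM, and the 15 megakaryocyte markers to 66.8 and 69.5 and 43.8 and 51.7 CPM, all higher in KO. The 17 stem and progenitor markers summed to 384 and 471 CPM in KO and 502 and 461 CPM in WT, with overlapping groups. The most abundant was Lmo2, also an erythroid factor, at 173.6 and 175.0 CPM in KO and 305.4 and 270.7 CPM in WT. The overlap rested on this gene. Of the 16 stem and progenitor markers tested, 3 were called higher and 3 lower (median log2 fold change 0.31). The part that cells of other types had in the results was not tested, and in these bulk samples fewer cells of a type and less RNA per cell cannot be told apart. KO library B alone held Xist (462 CPM against at most 1.80 CPM elsewhere) and had 0 counts of the Y-linked genes Ddx3y, Uty, Kdm5d and Eif2s3y. Eif2s3y was at 15.5 CPM in KO library A and 50.6 and 53.8 CPM in WT, a difference that did not pass the test without KO library B (log2 fold change -1.75, edgeR adjusted p = 0.118). The difference in Xist rested on KO library B.

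Prmt5 itself (ENSMUSG00000023110, GRCm38 chromosome 14, 54507187 to 54517525, minus strand, protein coding) was measured at 3.64 and 4.92 CPM in KO and 13.8 and 17.7 CPM in WT. Both KO libraries were below both WT libraries (log2 fold change -1.89, SE 0.18, edgeR adjusted p = 2.31e-06). The labels do not name the floxed exons, and counts from retained exons are included, so the level left in KO is no measure of how many cells escaped deletion. Wdr77, the gene of the Prmt5 partner, was at 16.5 and 15.7 CPM in KO and 24.5 and 25.4 CPM in WT and fell by 0.63 on the log2 scale. Among the adaptors that bring substrates to the complex, Clns1a (pICln, which presents Sm proteins) rose from 19.0 and 22.4 CPM in WT to 32.8 and 34.0 CPM in KO (log2 fold change 0.69, SE 0.12, edgeR adjusted p = 0.000418). Coprs, which tethers the enzyme to histones, rose by 1.48 on the log2 scale from a level below 1 CPM in WT, a call lost without KO library A (edgeR adjusted p = 0.0526) or without WT library A (0.0653). Riok1, the adaptor that competes with pICln, was at 20.02 and 16.6 CPM in KO and 18.0 and 19.4 CPM in WT, and the groups overlapped.

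Other arginine methyltransferases moved in both directions. Prmt1, the main enzyme of asymmetric dimethylation, was at 27.3 and 29.7 CPM in KO and 12 and 15 CPM in WT, about 2.11-fold higher in KO (log2 fold change 1.08, SE 0.13, edgeR adjusted p = 1.46e-05). Prmt2 was at 1.96 and 2.59 CPM in KO and 0.180 and 0.471 CPM in WT, a log2 fold change of 2.77 (3.61 without WT library B). Carm1, which methylates coactivators and splicing proteins, was at 37.9 and 34.0 CPM in KO and 68.4 and 65.1 CPM in WT and fell by 0.89 on the log2 scale. Prmt3, Prmt6, Prmt7 and Prmt10 did not pass the test, with log2 fold changes of -0.04, 0.52, 0.17 and -0.14, although Prmt6 passed it without KO library B (0.86) and with no filter on low counts (0.55).

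The make-up of the RNA differed between the genotypes. Structural RNAs, meaning the noncoding RNAs of the signal recognition particle (7SL), of transcription control (7SK), of RNA-processing enzymes and of the spliceosome, took 36.9% and 35.5% of all counts in KO and 6.29% and 6.40% in WT. The KO mean was 36.2% ± 0.968 and the WT mean 6.34% ± 0.0751 (SD, n = 2 each), a ratio of 5.70. An exact two-sided permutation test gave p = 0.333, the smallest that 2 against 2 libraries allow. The 7SL genes alone held 25.9% and 25.3% of counts in KO and 4.28% and 4.64% in WT. Rn7sk, the 7SK RNA, held 6.32% and 5.77% and 1.43% and 1.27%. Rpph1, the RNA of ribonuclease P, held 2.16% and 2.00% and 0.208% and 0.158%, a ratio of 11.4, and Rmrp, the RNA of ribonuclease MRP, 1.54% and 1.48% and 0.160% and 0.134%. In contrast, Rn18s-rs5, a ribosomal RNA gene model whose product the depletion step targets, held 0.0273% and 0.0252% and 0.0219% and 0.0129%. Counts of protein-coding genes made up 45.3% and 44.5% in KO and 76.2% and 75.7% in WT. CPM levels are scaled by TMM factors, while shares of counts are not. Higher and lower are thus relative to those factors, and amounts of RNA per cell were not measured.

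**Figure D1:**
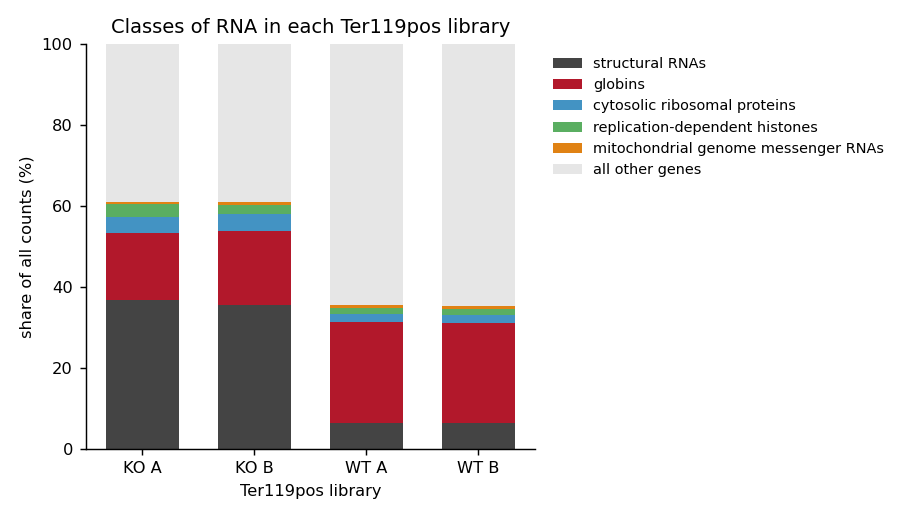
Stacked bars give the share of all counts (%, from 0) taken by 5 classes of genes and by all other genes in each Ter119pos library. Structural RNAs fill 36.9% and 35.5% of the KO bars against 6.29% and 6.40% of the WT bars, while globins fill a smaller part of the KO bars.

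After normalisation the structural RNAs still stood higher in KO, with 21 called higher and none lower of 24 tested and a median log2 fold change of 3.40, beside -0.04 over all 15566 genes tested. Over all genes tested, 24.8% were called higher and 29.3% lower (edgeR adjusted p under 0.05). Rn7s1 was at 292021 and 336543 CPM in KO and 29817 and 31216 CPM in WT (log2 fold change 3.36, SE 0.34, edgeR adjusted p = 4.58e-06). Rnu1a1, a U1 small nuclear RNA of the spliceosome, was at 1729 and 1864 CPM in KO and 158 and 165 CPM in WT, and Rny1, a Y RNA bound by the Ro protein, at 68.5 and 71.3 CPM in KO and 2.28 and 2.24 CPM in WT. Terc, the RNA template of telomerase, rose by 2.87 on the log2 scale. Copies of U1 and U3 share nearly all their sequence, so their separate levels are uncertain. Rn18s-rs5 (1.47) and a pair of U3 copies did not pass the test, although Rn18s-rs5 passed it in the 4 Ter119pos libraries alone (1.65) and with no filter on low counts. Guide RNAs that direct modification of ribosomal and spliceosomal RNA behaved alike, with 51 called higher and none lower of 59 tested and a median of 2.48. Snora78 rose from 36.8 and 27.7 CPM in WT to 291 and 389 CPM in KO. Removal of a transcript length trend in each library, described next, left 19 called higher and none lower of the structural RNAs (median 1.79) and 19 called higher and 9 lower of the guide RNAs (median 0.25). The removal fits these short transcripts too, so it takes out part of their difference by construction.

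Fold changes followed transcript length. When 15489 genes with a known longest transcript were split into 8 equal bins, the median log2 fold change was 0.91 in the shortest bin and fell at each step to -0.39 in the longest. In the shortest bin 47.0% of genes were called higher, and in the longest 45.4% were called lower. Across 12816 protein-coding genes alone, the medians ran from 0.86 to -0.40, and Spearman's rho between length and log2 fold change was -0.29, given as a description since the genes share the 4 libraries. With the trend removed rho was -0.11. The value after that removal is given below for several lists, and the cause of the trend was not tested.

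**Figure D2:**
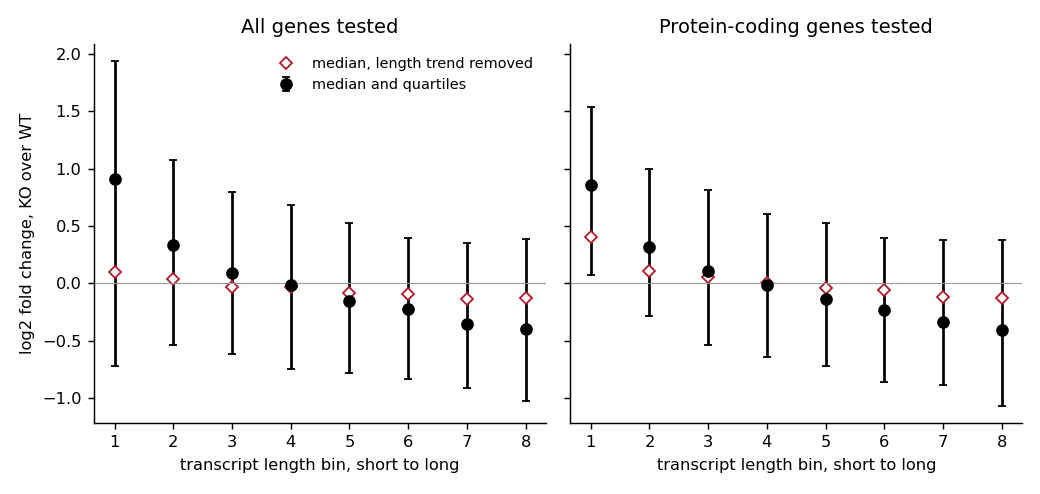
Points give the median log2 fold change of KO over WT and bars its quartiles in 8 bins of longest annotated transcript, from short to long, for all genes (left) and protein-coding genes (right), and open diamonds the medians after removal of the length trend. The medians descend from 0.91 to -0.39 over all genes and from 0.86 to -0.40 over protein-coding genes.

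In all, 3864 genes were called higher and 4566 lower in KO, together 54.2% of those tested, and 2441 and 2546 of them differed at least 2-fold. Both KO libraries lay above both WT libraries for 5567 genes (35.8%) and below for 6192 (39.8%). With this much change a gene group is read against the share over all genes.

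The 15 largest rises were taken among genes with non-overlapping groups that met the minimum mean level stated with the processing. They included several genes close to absent in WT, which met that minimum through their KO levels. Ranking by fold change favours such genes, so their low WT levels are in part a product of the choice. Their WT levels rest on few or no counts. Anxa8, an annexin, was at 21.3 and 27.7 CPM in KO and at 0 counts in both WT libraries, at least 271-fold higher against a floor of 3 counts over the group. Tubb3, a tubulin best known from neurons, was at 73.3 and 111 CPM in KO and 0.421 and 0.353 CPM in WT (log2 fold change 7.88, SE 0.30, edgeR adjusted p = 1.4e-08). The secreted neuropeptide precursor Vgf, the costimulatory ligand Cd80, the angiopoietin receptor Tek, the plasma glutathione peroxidase Gpx3 and Spry1, an inhibitor of receptor tyrosine kinase signaling, were also among the 15, with log2 fold changes of 7.54, 8.42, 6.28, 5.86 and 5.91. The value of Cd80 was 11.45 without WT library A and 7.51 without WT library B. Tek was also 1 of the 15 endothelial and stromal markers and the most abundant of them. The p53 targets Cdkn1a, Eda2r, Plk2, Phlda3, Tnfrsf10b, Ddit4 and Dcxr, described next, were among them as well.

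The largest falls were in genes of mixed function. Mki67, the proliferation marker Ki-67, was at 1237 and 1249 CPM in KO and 10631 and 9144 CPM in WT, about 7.95-fold lower in KO (log2 fold change -2.99, SE 0.18, edgeR adjusted p = 1.68e-07). Aqp1, the water channel of the red cell membrane that carries the Colton blood group, was at 4.34 and 7.94 CPM in KO and 86.2 and 62.3 CPM in WT. Aim2, a sensor of cytosolic DNA, was at 1.40 and 1.04 CPM in KO and 20.5 and 17.3 CPM in WT. Its annotated span on chromosome 1 overlaps that of Cadm3, which also fell (log2 fold change -3.71). Whether these falls are separate was not tested. Angpt2, an angiopoietin, fell by 4.05 on the log2 scale (-5.31 without KO library A) and Runx1t1, a transcriptional corepressor, by 2.85. Hist2h3c1 was at 0 counts in both KO libraries against 7.82 and 12.6 CPM in WT, at least 88.2-fold lower, but its sequence is shared with near-identical histone H3 copies, which makes its level uncertain. Other genes were Slc15a2, Cadm3, H2-T24, Ube2d2b, Mageb16, Zswim5, Ldlrad4 and Entpd4, with log2 fold changes between -3.83 and -2.97. The lowest of these, that of Slc15a2, was -7.92 without KO library A and -2.96 without KO library B.

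Targets of p53 that act in cell cycle arrest and in feedback on p53 were higher in KO, with 18 called higher and 3 lower of 24 tested and a median log2 fold change of 3.27. Cdkn1a, which encodes the kinase inhibitor p21, was at 256 and 315 CPM in KO and 1.44 and 1.29 CPM in WT, and the lowest KO library was far above the highest WT library (log2 fold change 7.70, SE 0.52, edgeR adjusted p = 2.67e-07). Ccng1, a cyclin that feeds back on p53, was at 396 and 456 CPM in KO and 22.1 and 28.7 CPM in WT, and Sesn2, a stress-induced inhibitor of mTOR signaling, at 136 and 165 CPM in KO and 11.1 and 10.1 CPM in WT. Both had KO libraries more than 10 times the WT libraries. Phlda3, an inhibitor of Akt, was at 26.2 and 33.7 CPM in KO and 0.301 and 0.353 CPM in WT, Plk2, a polo-like kinase, at 13.6 and 17.5 CPM in KO and 0.0601 and 0.235 CPM in WT, and Ddit4, another mTOR inhibitor, at 11.1 and 14.1 CPM in KO and 0.180 and 0.177 CPM in WT. Dcxr, a carbonyl reductase, rose by 5.84 on the log2 scale. Named after their values were seen, Trp53 (the p53 gene) and Mdm2 (its ubiquitin ligase) rose by 1.49 and 2.08. Of the 3 members called lower, Ckap2, which binds the spindle, and Sesn1, a stress-defence paralog of Sesn2, likewise seen first, fell by 2.32 and 1.14. After removal of the length trend 18 members were called higher and 3 lower.

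The RefSeq promoter table (GRCm38.p6) gave 2 start sites for Cdkn1a on the plus strand of chromosome 17, 2790 bases apart. The 250 bases before the upstream start (chr17:29090729-29090978) are shown because they hold a CATGNNNNNNCATG pair, the core letters of a p53 binding element, in capitals 48 to 35 bases before the start.
Cdkn1a, upstream start: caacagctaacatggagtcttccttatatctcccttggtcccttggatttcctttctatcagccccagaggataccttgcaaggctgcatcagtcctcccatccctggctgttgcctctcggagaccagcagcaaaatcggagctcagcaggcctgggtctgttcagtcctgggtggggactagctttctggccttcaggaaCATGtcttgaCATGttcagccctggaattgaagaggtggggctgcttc
The motif reads the same on both strands. It occurred in 0.490% of all 32851 windows of the same length, and of the 44 genes of the p53 lists that had a window, Cdkn1a alone held it. A match describes these letters only, and its absence elsewhere concerns only these windows and says nothing of binding.

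Death genes among the p53 targets rose as well, with 11 called higher and 1 lower of 17 tested and a median of 1.63. With the GC trend removed 3 were called lower, and in the 4 Ter119pos libraries alone none was. Eda2r, a receptor of the tumor necrosis factor family, was at 45.7 and 48.4 CPM in KO and 0.120 and 0.412 CPM in WT (log2 fold change 7.43, SE 0.71, edgeR adjusted p = 2.59e-06, and 6.81 and 8.56 without WT library A and B), and Tnfrsf10b, the mouse TRAIL receptor, at 10.9 and 10.9 CPM in KO and 0.180 and 0.0588 CPM in WT. Bax, the effector that permeabilises the mitochondrial outer membrane, was at 65.3 and 66.3 CPM in KO and 13.0 and 14.1 CPM in WT (log2 fold change 2.28, SE 0.12, edgeR adjusted p = 6.25e-08), Bbc3 (Puma) at 14.1 and 19.4 CPM in KO and 3.67 and 3.00 CPM in WT and Pmaip1 (Noxa) at 5.11 and 9.06 CPM in KO and 0.661 and 0.530 CPM in WT. In each of these 5 genes the groups were apart. Perp, Ei24 and Siva1 rose by 4.72, 1.98 and 1.48 on the log2 scale. Bid, which links death receptors to mitochondria, was at 6.65 and 6.90 CPM in KO and 6.91 and 7.36 CPM in WT and did not pass the test. Of 10 repair genes under p53 control, 3 (30%) were called higher and 4 (40%) lower, beside 24.8% and 29.3% over all genes. Ercc5, a nuclease of nucleotide excision repair, rose by 2.19 and Mgmt, which removes alkyl groups from guanine, by 4.00 (4.96 without WT library B). Rev3l and Polh, polymerases that copy past lesions, fell by 1.69 and 0.76, and Ddb2, which recognises ultraviolet damage, by 0.90 (edgeR adjusted p = 0.0559 without KO library B). Of this list 5 were called higher under 6 of the alternatives.

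**Figure D3:**
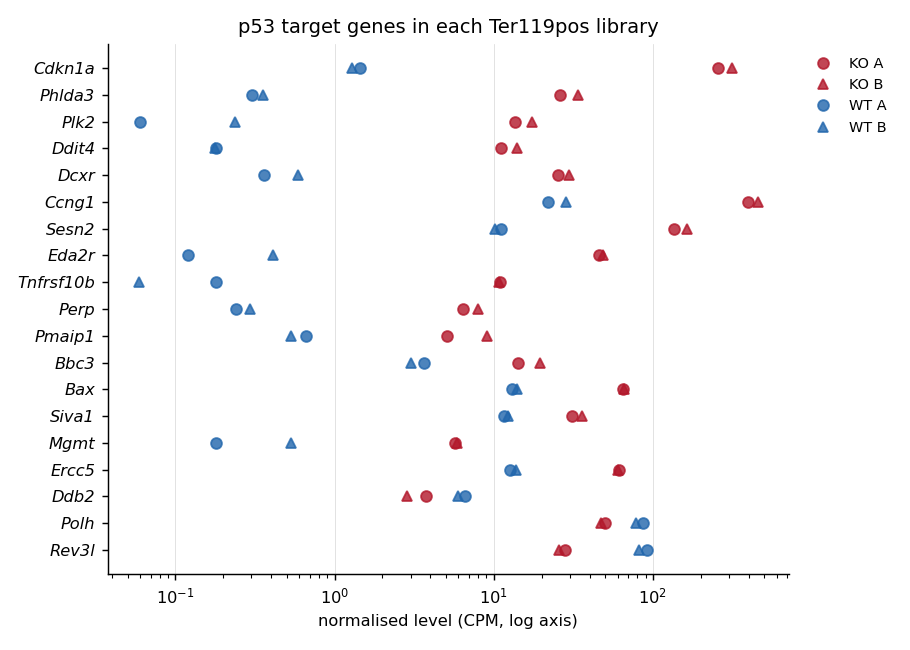
Each row gives the normalised level (CPM, log axis) of a p53 target gene in the KO (red) and WT (blue) libraries, with circles for library A and triangles for library B. In the 16 upper rows both KO libraries lie to the right of both WT libraries, and in the 3 lowest rows (repair genes) to the left.

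Among 16 measured members of the Bcl2 family, which sets the threshold of mitochondrial cell death, 8 rose and 2 fell. Beside Bax, Bbc3 and Pmaip1, the killers Bak1 and Bad rose by 1.23 and 1.10. Bcl2l1 encodes Bcl-xL, the survival protein of erythroid cells, and was at 407 and 424 CPM in KO and 882 and 753 CPM in WT, lower in both KO libraries (log2 fold change -0.98, SE 0.15, edgeR adjusted p = 0.000108). Bcl2l11 (Bim) fell by 1.17. Mcl1 was at 169 and 182 CPM in KO and 196 and 195 CPM in WT, Bcl2 stayed below 1 CPM in all libraries, and neither passed the test. Bnip3l, the receptor for removal of mitochondria, was at 822 and 1131 CPM in KO and 828 and 742 CPM in WT, with overlapping groups, and passed the test with the GC trend removed (0.53) and in the 4 Ter119pos libraries alone (0.49).

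Genes of the cell division cycle were mostly lower in KO. Of the genes for G1 cyclins, kinases, their inhibitors and E2F factors, 4 rose and 17 fell (median -0.65). E2f2, an E2F factor abundant in erythroid cells, was at 509.7 and 447 CPM in KO and 1062 and 885 CPM in WT, and E2f4, which fetal erythropoiesis requires, at 95.6 and 83.6 CPM in KO and 217 and 189 CPM in WT. The repressors E2f7 and E2f8 fell by 2.24 and 2.00, and Cdkn2d, the p19 inhibitor of Cdk4, by 1.48. Against this, Ccnd2 (cyclin D2) was at 123 and 116 CPM in KO and 11.8 and 15.2 CPM in WT, 8.8-fold higher in KO (log2 fold change 3.14, SE 0.17, edgeR adjusted p = 9.03e-08). Of 52 genes of S phase and replication, 5 rose and 33 fell (median -0.64). Clspn, an adaptor of the replication checkpoint, was at 30.6 and 27.3 CPM in KO and 156 and 144 CPM in WT, and Dnmt1, the maintenance DNA methyltransferase, at 125 and 108 CPM in KO and 440.2 and 417 CPM in WT. The polymerase subunits Pole and Pola1 fell by 1.74 and 1.63, and Tk1, a thymidine kinase, by 1.16. Rfc4, a subunit of the clamp loader named after its value was seen, was among the 5 called higher (0.78), and 3 were called higher when KO library B or WT library A was left out or the GC trend removed.

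Of 50 genes of G2 and mitosis, 45 were called lower and 1 higher, with a median of -1.27. Cenpf and Cenpe, proteins of the kinetochore, were at 92.0 and 92.7 CPM in KO and 604 and 517 CPM in WT and at 80.4 and 81.8 CPM in KO and 443 and 393 CPM in WT. Aspm, of the spindle pole, fell by 2.28, and Anln, Prc1 and Kif23, which build the midbody and cleavage furrow, by 2.17, 2.12 and 2.06. Pttg1 (securin), named after its value was seen, was the member called higher (1.13). The median longest transcript of this list was 3586 bases, beside 3065 over all genes. With the length trend removed the list held 1 called higher and 46 lower, with a median of -1.18.

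Genes that repair DNA breaks by homologous recombination were lower in KO, with 1 called higher and 37 lower of 41 tested and a median of -1.06 (-0.89 with the length trend removed). Brca1 was at 54.0 and 52.5 CPM in KO and 205 and 188 CPM in WT (log2 fold change -1.88, SE 0.11, edgeR adjusted p = 1.18e-07) and Brca2 at 38.3 and 34.7 CPM in KO and 161 and 149.9 CPM in WT. Gen1, a resolvase of crossed strands, fell by 2.12 and Rad50, which holds broken ends, by 1.53. Trp53bp1 and Rif1, which steer breaks away from recombination, fell by 1.68 and 1.33, and Rad51d, named after its value was seen, was called higher (0.80). Of 12 genes of the Fanconi anemia pathway, which repairs crosslinked DNA, 8 fell and none was called higher, among them Fancm (-1.51), Fanci (-1.28) and Fancd2 (-1.11). TIP60 is a histone acetyltransferase complex of break repair. Of its 18 genes 2 (11.1%) rose and 7 (38.9%) fell (median -0.23), beside 24.8% and 29.3% over all genes. The number higher was 4 when globins were removed and 5 in the 4 Ter119pos libraries alone. Brd8 was at 57.1 and 51.8 CPM in KO and 228 and 180.1 CPM in WT, Ep400 fell by 1.39 and Epc1 by 1.18, while Dmap1 rose by 0.96.

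Replication-dependent histone genes, whose messages end in a stem loop in place of a poly(A) tail, went the other way. They were called higher in 66 of 69 cases with a median of 2.03, and in 57 with the length trend removed (median 1.33). Hist1h4a was at 1338 and 1259 CPM in KO and 209 and 154 CPM in WT (log2 fold change 2.84, SE 0.23, edgeR adjusted p = 7.67e-07), and Hist1h3e at 1127 and 1023 CPM in KO and 192 and 132 CPM in WT. As a class they held 3.16% and 2.33% of all counts in KO and 1.61% and 1.28% in WT. The histone copies share most of their sequence, so single genes are uncertain. Hist2h3c1 and Hist2h2be, the latter named after its value was seen, were called lower (-0.87 for Hist2h2be). Replacement histones moved in both directions, with H2afx at 990.2 and 981 CPM in KO and 243 and 149 CPM in WT and H2afj at 81.2 and 95.0 CPM in KO and 24.4 and 18.1 CPM in WT, and with H1f0, the linker histone of differentiating cells, lower by 1.23.

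Of 24 erythroid transcription factors and cofactors, 3 rose and 14 fell (median -0.55, or -0.47 with the length trend removed). The master regulator Gata1 was at 167 and 164 CPM in KO and 198 and 189 CPM in WT, lower in both KO libraries without passing the test (log2 fold change -0.23, SE 0.11, edgeR adjusted p = 0.107). It passed with the length trend (-0.43) or the GC trend (-0.49) removed. Its cofactor Zfpm1 was at 257 and 221 CPM in KO and 292 and 247 CPM in WT, with overlapping groups, and passed with the GC trend removed (-1.21). Klf1, the factor that drives adult beta globin and membrane genes, was at 472 and 456 CPM in KO and 311 and 275 CPM in WT, higher in KO (log2 fold change 0.66, SE 0.13, edgeR adjusted p = 0.000888), but not past the test with the GC trend removed (0.14, edgeR adjusted p = 0.38). The partners Tal1, Lmo2 and Ldb1 fell by 0.57, 0.72 and 0.54. Klf3, a repressor under Klf1, was at 122 and 131 CPM in KO and 561 and 422 CPM in WT, and Foxo3, which guards maturing erythroblasts against oxidants, at 470.0 and 434 CPM in KO and 898 and 782 CPM in WT. Sox6, Bcl11a and Zbtb7a, known as repressors of embryonic or fetal globins, were lower. Sox6 was at 177 and 167 CPM in KO and 698 and 562 CPM in WT (log2 fold change -1.87, SE 0.16, edgeR adjusted p = 1.03e-06), Bcl11a at 40.4 and 35.6 CPM in KO and 76.3 and 75.7 CPM in WT (log2 fold change -0.998, SE 0.11, edgeR adjusted p = 6.96e-06), and Zbtb7a at 59.2 and 50.5 CPM in KO and 129 and 98.9 CPM in WT. Hic2, a repressor of Bcl11a, was at 19.9 and 17.6 CPM in KO and 3.85 and 4.65 CPM in WT, apart from WT in both libraries (log2 fold change 2.14, SE 0.20, edgeR adjusted p = 1.95e-06). Cbfa2t3, the corepressor ETO2, also tied to globin repression, rose by 1.75.

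Embryonic globins were higher in KO, and adult globins, which form the bulk of hemoglobin at this age, did not pass the test. Hbb-y, the embryonic epsilon-like beta globin, was at 11646 and 14756 CPM in KO and 1049 and 2498 CPM in WT, so the lower KO library held several times the level of the higher WT library (log2 fold change 2.90, SE 0.40, edgeR adjusted p = 5.92e-05, and 3.65 without WT library B). Hbb-bh1, the other embryonic beta-type gene, was at 1771 and 1978 CPM in KO and 165 and 259 CPM in WT (log2 fold change 3.15, SE 0.21, edgeR adjusted p = 2.6e-07). Hba-x, the zeta-type embryonic alpha globin, was at 1566 and 1803 CPM in KO and 187 and 428 CPM in WT (log2 fold change 2.45, SE 0.31, edgeR adjusted p = 2.37e-05, and 3.17 without WT library B). WT library B exceeded WT library A for all 3, without reaching the KO range. Of the adult genes, Hbb-bs was at 131033 and 169547 CPM in KO and 120695 and 108395 CPM in WT (log2 fold change 0.39, SE 0.33, edgeR adjusted p = 0.347) and Hba-a1 at 51323 and 70126 CPM in KO and 57497 and 47875 CPM in WT (log2 fold change 0.20, SE 0.29, edgeR adjusted p = 0.577). Hbb-bt and Hba-a2 had log2 fold changes of 0.41 and 0.22. With no filter on low counts Hbb-bs (0.42) and Hbb-bt (0.44) were called higher, and with the length trend removed all 4 adult genes had values below 0, from -0.56 to -0.23. Hba-a1 and Hba-a2 share their coding sequence, as Hbb-bs and Hbb-bt nearly do, so their split is uncertain.

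Ratios within a library do not depend on normalisation. The embryonic genes Hbb-y and Hbb-bh1 made up 5.92% and 5.75% of beta-type globin counts in KO and 0.633% and 1.52% in WT, with means of 5.83% ± 0.118 and 1.07% ± 0.624 (SD, n = 2 each). Hba-x made up 1.38% and 1.15% of alpha-type counts in KO and 0.149% and 0.406% in WT. For both, the groups were apart, and the exact two-sided permutation p was 0.333, the smallest the design allows. Globins as a class held 16.4% and 18.3% of all counts in KO and 25.1% and 24.6% in WT. Of protein-coding counts, they held 36.2% and 41.1% in KO and 33.0% and 32.5% in WT, so the order of the genotypes depends on the denominator. Embryonic globins mark the primitive red cells of the yolk sac, which circulate at this stage and also carry Ter119, and the share of such cells was not measured.

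Promoter windows of embryonic and adult globins are shown because the pairs moved differently. They are the 250 bases before the RefSeq start (GRCm38.p6), with Hbb-y at chr7:103853208-103853457 (minus strand), Hba-x at chr11:32276350-32276599 (plus), Hbb-bs at chr7:103827929-103828178 (minus) and Hba-a1 at chr11:32283422-32283671 (plus). Capitals mark CACCC (the core of the Klf1 element), CCAAT and TGACCA (core letters bound by Bcl11a), searched on both strands, and in Hbb-y the last 2 overlap.
Hbb-y: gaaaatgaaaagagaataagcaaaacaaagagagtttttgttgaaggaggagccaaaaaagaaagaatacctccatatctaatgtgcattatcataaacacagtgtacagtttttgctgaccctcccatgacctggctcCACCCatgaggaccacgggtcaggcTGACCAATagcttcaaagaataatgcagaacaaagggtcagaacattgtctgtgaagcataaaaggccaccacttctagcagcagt
Hba-x: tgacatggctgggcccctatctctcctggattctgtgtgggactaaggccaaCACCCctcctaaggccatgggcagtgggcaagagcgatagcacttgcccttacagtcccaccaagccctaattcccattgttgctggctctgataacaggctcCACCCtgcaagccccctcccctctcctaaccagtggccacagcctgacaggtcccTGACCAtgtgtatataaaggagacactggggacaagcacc
Hbb-bs: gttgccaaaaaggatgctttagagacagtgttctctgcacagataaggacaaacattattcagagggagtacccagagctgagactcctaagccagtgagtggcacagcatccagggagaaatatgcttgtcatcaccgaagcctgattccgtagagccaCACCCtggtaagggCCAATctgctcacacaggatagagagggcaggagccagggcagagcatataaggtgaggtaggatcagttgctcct
Hba-a1: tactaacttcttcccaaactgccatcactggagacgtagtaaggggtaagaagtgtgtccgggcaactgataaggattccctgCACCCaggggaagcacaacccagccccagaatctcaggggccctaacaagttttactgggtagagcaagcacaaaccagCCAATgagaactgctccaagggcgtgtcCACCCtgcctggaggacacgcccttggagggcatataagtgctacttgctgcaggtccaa
CACCC was in all 4 windows and in 52.0% of all 32851 windows. CCAAT was in 3 of them, not in that of Hba-x, and in 33.8% of all. TGACCA was in those of Hbb-y, at 86 to 81 bases before the start, and of Hba-x, at 40 to 35 bases, and in 11.4% of all. Of the 9 globin genes with a window these were the 2 that held TGACCA. Hbb-bh1, the other embryonic globin called higher, had no RefSeq window, so its letters were not searched. The matches describe letters, and no binding was measured.

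**Figure D4:**
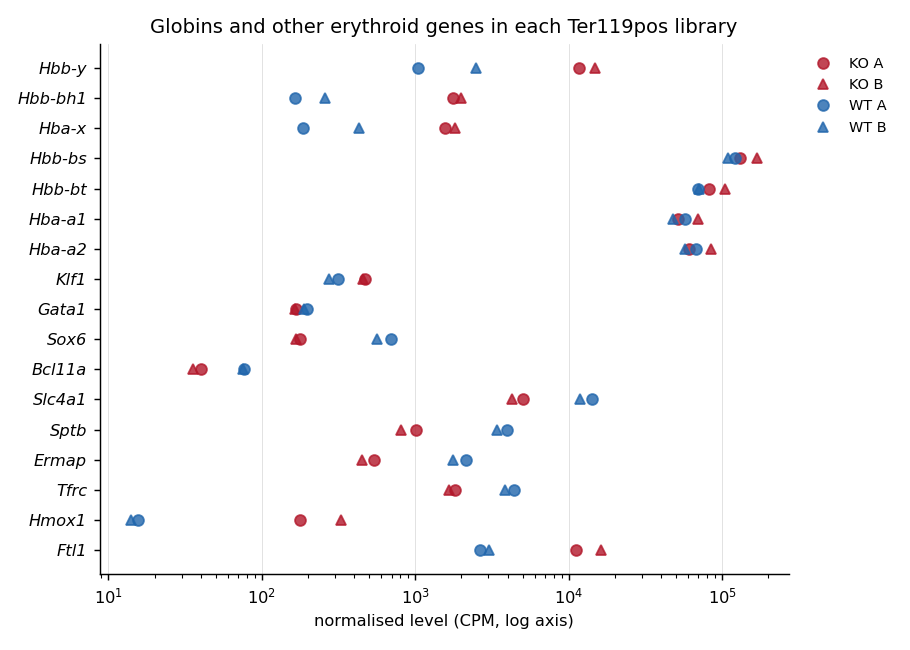
Each row gives the normalised level (CPM, log axis) of a globin, erythroid factor, membrane or iron gene in the KO (red) and WT (blue) libraries, with circles for library A and triangles for library B. The 3 embryonic globins at the top, Hmox1 and Ftl1 lie to the right in KO, Slc4a1, Sptb, Ermap and Tfrc to the left, and the adult globins Hba-a1 and Hba-a2 overlap.

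Of 18 genes of heme synthesis and its transport, 2 (11.1%) rose and 6 (33.3%) fell (median -0.25), beside 24.8% and 29.3% over all genes. The number called lower was 9 with the length trend removed and 10 with the GC trend removed. The number called higher was 4 in the 4 Ter119pos libraries alone, with factors over protein-coding genes or with globins removed. Alas2, the erythroid enzyme of the first step, was at 2727 and 3414 CPM in KO and 4013 and 3569.6 CPM in WT, lower in both KO libraries without passing the test (log2 fold change -0.30, SE 0.18, edgeR adjusted p = 0.183). The middle enzymes Alad, Uros and Urod had log2 fold changes of 0.12, -0.22 and -0.08 and did not pass it. With the length trend removed Alas2, Uros and Urod were called lower (-0.47, -0.35 and -0.40), as were Alas2 and Uros with the GC trend removed (-0.48 and -0.28). Cpox and Ppox, which act in the mitochondrion, were at 885 and 849 CPM in KO and 1718 and 1516 CPM in WT and at 444 and 412 CPM in KO and 736 and 632 CPM in WT, and Fech, which inserts the iron, at 1461 and 1562 CPM in KO and 2408 and 2201 CPM in WT. All 3 fell, by 0.90, 0.68 and 0.61 on the log2 scale, the call for Fech being lost with the length trend removed (edgeR adjusted p = 0.0608) and in the 4 Ter119pos libraries alone (0.0511). The mitochondrial transporter Abcb10 fell by 0.52 (without KO library B, edgeR adjusted p = 0.0531, without WT library A, 0.0636, and in the 4 Ter119pos libraries alone, 0.095), and Tspo2 by 1.05. Tmem14c, which carries the precursor into the mitochondrion, and Fam210b rose by 1.00 and 0.62.

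Of 21 genes of iron handling, 11 (52.4%) rose and 7 (33.3%) fell (median 0.38), beside 24.8% and 29.3% over all genes. Tfrc, the transferrin receptor of iron uptake, was at 1809.7 and 1647 CPM in KO and 4376 and 3829.5 CPM in WT (log2 fold change -1.25, SE 0.16, edgeR adjusted p = 3.46e-05). Slc11a2, which moves iron out of the endosome, was at 63.4 and 52.5 CPM in KO and 176 and 161 CPM in WT, and Slc25a37 (mitoferrin), which moves it into the mitochondrion, at 3444 and 2809 CPM in KO and 8903 and 7582 CPM in WT. Both fell, although Slc25a37 belongs to a stretch of chromosome 14 in which nearly every gene model was lower in KO. Hmox1, heme oxygenase, was at 178 and 326 CPM in KO and 15.7 and 14 CPM in WT, 17-fold higher in KO (log2 fold change 4.08, SE 0.28, edgeR adjusted p = 2.8e-07). Ftl1, the ferritin light chain, was at 11089 and 16158 CPM in KO and 2646 and 3036 CPM in WT (log2 fold change 2.26, SE 0.22, edgeR adjusted p = 3.29e-06). Slc40a1, the iron exporter, also a macrophage marker, fell by 0.82.

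Genes of the red cell membrane and its skeleton were mostly lower, with 2 called higher and 23 lower of 29 tested and a median of -0.998 (-1.02 with the length trend removed). Sptb, a spectrin chain, was at 1018 and 809 CPM in KO and 3950.5 and 3423 CPM in WT. Slc4a1, the anion exchanger band 3, was at 5008 and 4263 CPM in KO and 14114 and 11758 CPM in WT (log2 fold change -1.48, SE 0.20, edgeR adjusted p = 4.33e-05), and Ermap, which carries the Scianna blood group, at 539 and 448 CPM in KO and 2143 and 1757 CPM in WT. Rhd and Icam4 fell by 1.08 and 1.22, and Tmod1, which caps actin in the skeleton, by 1.53. Car1 and Tmod3, named after their values were seen, were called higher (1.53 and 1.04).

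Genes of nuclear condensation, enucleation and organelle clearance were lower in 16 of 27 cases and higher in 3 (median -0.61). With the length trend removed 15 were lower and 5 higher (median -0.46), and 6 were higher in the 4 Ter119pos libraries alone. Xpo7, a nuclear exporter of maturing erythroblasts, was at 1081 and 1074 CPM in KO and 4295 and 4122 CPM in WT (log2 fold change -1.97, SE 0.16, edgeR adjusted p = 6.67e-07), and Hemgn, a hematopoietic nuclear protein, at 345 and 326 CPM in KO and 971 and 913 CPM in WT. Setd8, the methyltransferase of histone H4 lysine needed for condensation, fell by 1.15, Rnf123 by 1.45 and Klf13 by 1.77. Rac2, a GTPase of the contractile ring, rose by 1.63.

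Of 24 genes of erythropoietin and Kit signaling, 37.5% (9) rose and 29.2% (7) fell, beside 24.8% and 29.3% over all genes. With the length trend removed 12 rose and 7 fell. Epor, the erythropoietin receptor, was at 92.4 and 73.8 CPM in KO and 185 and 153 CPM in WT (log2 fold change -1.02, SE 0.14, edgeR adjusted p = 4.73e-05), and its kinase Jak2 at 51.7 and 52.6 CPM in KO and 214 and 192 CPM in WT (log2 fold change -1.96, SE 0.11, edgeR adjusted p = 1.2e-07). Kit, the stem cell factor receptor of earlier cells, was at 11.4 and 14 CPM in KO and 7.28 and 8.42 CPM in WT, higher in KO (log2 fold change 0.69, SE 0.15, edgeR adjusted p = 0.00191). Csf2rb, the common beta chain of the interleukin receptors, was at 85.0 and 70.6 CPM in KO and 6.55 and 5.77 CPM in WT, and its mouse paralog Csf2rb2 at 50.8 and 45.3 CPM in KO and 3.01 and 2.53 CPM in WT. The near-identical sequences of the pair make the split between them uncertain. Lyn, a Src-family kinase downstream of both receptors, rose by 1.91, and Pik3r1, a regulatory subunit of phosphoinositide kinase, fell by 1.55.

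The splicing machinery is a main substrate of Prmt5. Of 26 genes for Sm proteins and the SMN complex that loads them, 11 rose and 3 fell, with a median of 0.16. Snrpd2 was at 108 and 121 CPM in KO and 28.3 and 31.8 CPM in WT (log2 fold change 1.93, SE 0.12, edgeR adjusted p = 1.68e-07), Snrpe, Snrpf and Snrpc rose by 1.15, 0.91 and 0.82, and Snrnp70, the U1 protein, fell by 0.72. The median longest transcript of this list was 1937 bases, and with the length trend removed it had 7 called higher and 4 lower, with Snrpf at 0.38 and no longer called. Without KO library B or WT library B, with globins removed, or in the 4 Ter119pos libraries alone, 1 member was called lower. Of 34 SR proteins, hnRNPs and their kinases, which choose splice sites, 3 rose and 25 fell (median -0.60), and 1 rose when KO library B or WT library A was left out. Clk4, a kinase of SR proteins, was at 28.6 and 29.7 CPM in KO and 95.8 and 85.3 CPM in WT, Srsf5 at 153 and 132 CPM in KO and 384 and 326 CPM in WT and Hnrnpm at 60.8 and 60.1 CPM in KO and 171 and 153 CPM in WT. Gene-level counts do not show how the transcripts were spliced. By annotated class, gene models of sense intronic transcripts were called lower in 52 of 81 cases, those to be experimentally tested in 284 of 551 and antisense transcripts in 170 of 463, beside 29.3% over all genes.

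Cytosolic ribosomal protein genes were higher with almost no exception, in 86 of 87 cases, with a median of 1.99. After removal of the length trend 85 of them were called higher, with a median of 1.54. Rps14 was at 2179 and 2277 CPM in KO and 202 and 238 CPM in WT (log2 fold change 3.34, SE 0.17, edgeR adjusted p = 5.89e-08), Rpl13a at 2093 and 2264 CPM in KO and 357 and 393 CPM in WT and Rpl18 at 793 and 870.5 CPM in KO and 153 and 168 CPM in WT. As a class they held 8.73% and 9.36% of protein-coding counts in KO and 2.34% and 2.89% in WT. Rpl7l1, named after its value was seen, was the member that did not pass the test (0.15), and it passed in the 4 Ter119pos libraries alone (0.33). Mitochondrial ribosomal protein genes rose in 67 of 76 cases (median 0.94), and in 59 with the length trend removed (median 0.68), for example Mrpl52 at 20.7 and 21.9 CPM in KO and 5.59 and 5.41 CPM in WT. Factors that assemble ribosomes did not follow as a class, with 13 called higher and 11 lower of 46 tested (median -0.02). These were 28.3% and 23.9%, beside 24.8% and 29.3% over all genes. The number called lower was 6 without KO library A or B or with globins removed, 5 in the 4 Ter119pos libraries alone and 4 without WT library B. Polr1c, a subunit of RNA polymerases I and III, was at 47.6 and 46.5 CPM in KO and 12.1 and 13.3 CPM in WT, and Nop10 and Nhp2, proteins of pseudouridine guides, rose by 1.77 and 1.53. Ubtf, which activates ribosomal RNA genes, fell by 0.92.

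Messages of the mitochondrial genome depended on how they were scaled. Of 13, 9 were called higher and none lower (median 0.55), or 4 higher without KO library B, among them mt-Atp6 at 1152 and 1624 CPM in KO and 381 and 571 CPM in WT. With the length trend removed 2 were called higher and 4 lower, and their share of all counts was 0.550% and 0.598% in KO and 0.738% and 0.914% in WT.

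In glycolysis, 11 rose and 3 fell of 21 genes (median 0.59). With the GC trend removed 10 rose and 7 fell (median 0.27), and limma-voom called 5 lower. Slc2a3, the glucose transporter GLUT3, was at 222 and 211 CPM in KO and 22.5 and 28.4 CPM in WT (log2 fold change 3.09, SE 0.14, edgeR adjusted p = 2.86e-08), and Pkm, the pyruvate kinase of immature and proliferating cells, at 238 and 303 CPM in KO and 39.7 and 48.0 CPM in WT. Gapdh, Aldoa and Gpi1 rose by 1.47, 1.58 and 1.51, while Slc16a1, a lactate transporter, fell by 2.20. Among 20 antioxidant genes 9 (45%) rose and 5 (25%) fell, beside 24.8% and 29.3% over all genes. In the 4 Ter119pos libraries alone 1 fell. Prdx1, a peroxiredoxin, was at 732 and 1177 CPM in KO and 50.1 and 61.9 CPM in WT, with both KO libraries more than 10 times the WT libraries (log2 fold change 4.09, SE 0.23, edgeR adjusted p = 8.91e-08), and Prdx6, Gpx4 and Sod1 rose by 1.87, 1.62 and 0.86. Gclc, the first enzyme of glutathione synthesis, fell by 0.50. Of 28 genes of the amino acid response under Atf4, 25% (7) were called higher and 35.7% (10) lower, close to the 24.8% and 29.3% over all genes. Atf4 was at 126 and 137 CPM in KO and 232 and 228 CPM in WT, Slc7a5, a transporter of large amino acids, at 110.2 and 87.9 CPM in KO and 345 and 270.2 CPM in WT, and Eif2ak1, the heme-regulated kinase upstream of Atf4, at 349 and 365 CPM in KO and 800.1 and 677 CPM in WT, all lower in KO.

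Immediate early genes, whose messages appear within minutes of a stimulus, rose in 10 of 18 cases and fell in 2 (median 0.88). Jun was at 11.7 and 16.7 CPM in KO and 0.481 and 0.412 CPM in WT, Junb at 58.7 and 89.4 CPM in KO and 4.27 and 3.18 CPM in WT and Zfp36, which destabilises inflammatory messages, at 28.3 and 31.4 CPM in KO and 1.38 and 1.82 CPM in WT, each with groups far apart. Ier3 fell by 1.47. Of 35 interferon-response genes 4 (11.4%) rose and 12 (34.3%) fell, beside 24.8% and 29.3% over all genes. Their median was -0.85, and it ranged from -1.43 to -0.20 over the alternatives. Irf9 was at 25.8 and 30.8 CPM in KO and 111 and 51.4 CPM in WT, and WT library A was about 2-fold above WT library B. H2-K1, H2-D1 and B2m of class I antigen presentation rose, while H2-T24, a class I gene named above and outside the list used here, fell by 3.40. H2-K1 was at 21.6 and 29.6 CPM in KO and 4.63 and 4.47 CPM in WT, H2-D1 at 44.9 and 62.2 CPM in KO and 20.7 and 21.4 CPM in WT and B2m, the shared light chain, at 30.8 and 40.5 CPM in KO and 17.7 and 13.8 CPM in WT. Of 16 genes of the major histocompatibility complex and peptide loading, 5 (31.25%) rose and 1 (6.25%) fell, beside 24.8% and 29.3% over all genes.

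**Figure D5:**
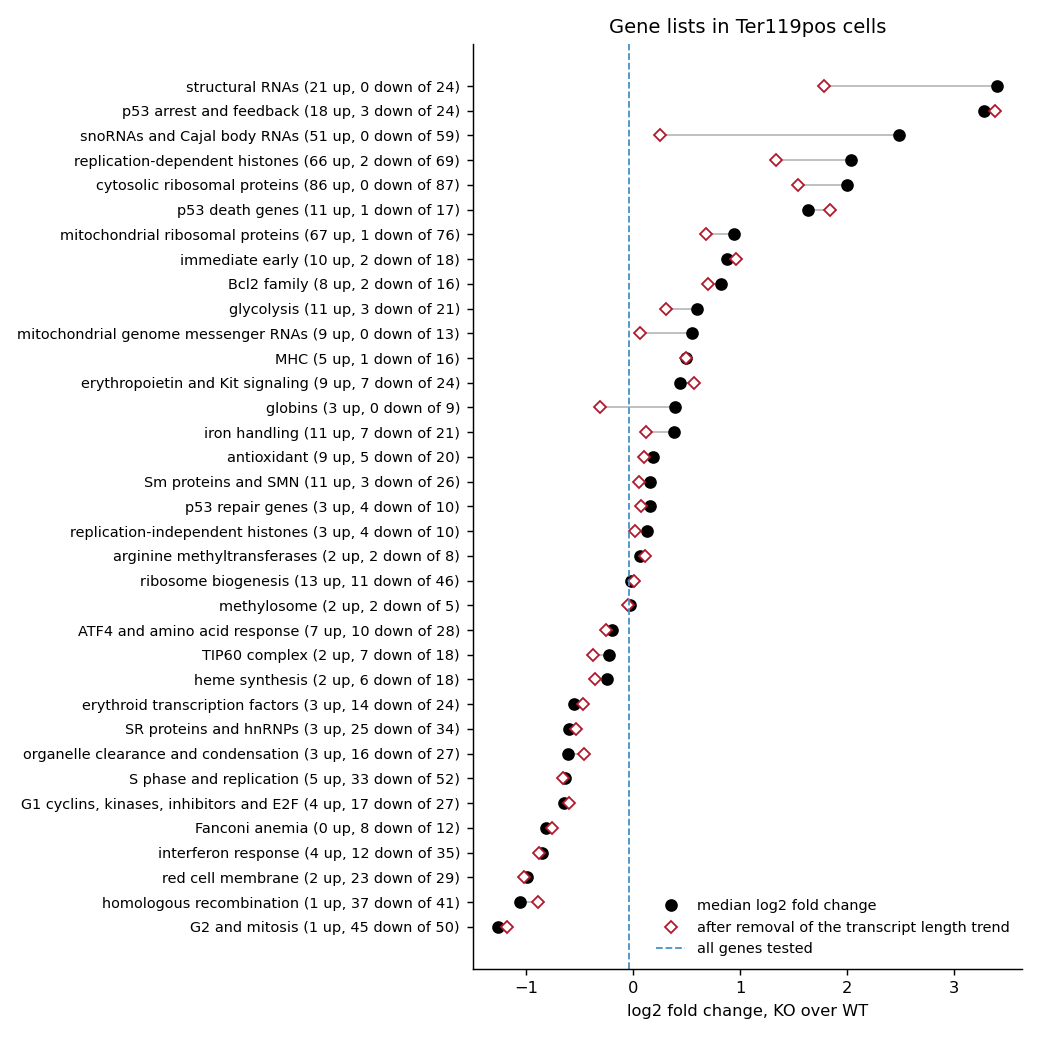
Filled points give the median log2 fold change of KO over WT over the tested members of each list, open diamonds the same after removal of the transcript length trend, and the dashed line the median over all genes tested; labels give the members called higher (up) and lower (down). The p53 arrest list stays at the right end after the removal, and the lists of G2 and mitosis, homologous recombination and the red cell membrane stay at the left end.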

How the data were processed

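Total RNA was taken up in Trizol and made into stranded libraries after removal of ribosomal RNA with Ribo-Zero, per the labels' protocols. The submitters' processing notes name STAR 2.5.3, RSEM and GRCm38 (mm10); the annotation release is not given in the sources used here. Values deposited by the authors were RSEM expected counts for 45706 genes. Gene types, coordinates and the longest transcript came from GENCODE M21 (GRCm38), which held 45143 of the identifiers.

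Expected counts were rounded and fitted in R 4.3.3 with edgeR 4.0.16 (filterByExpr, TMM, quasi-likelihood F tests). The fit had a mean for each of the 4 fetal groups, so that the Ter119neg libraries added to the estimate of spread. The filter and the TMM factors were also set over all 8 fetal libraries. Benjamini-Hochberg adjustment covered all 15566 tested genes, and a gene was called at an adjusted p below 0.05. The SE is the log2 fold change divided by the root of F. A fold against a group at 0 counts uses a floor of 3 counts over the group, which covers counting error only. Total counts were 29652947 and 28399110 in KO and 21017228 and 19880052 in WT, with TMM factors of 0.482, 0.408, 0.792 and 0.855. On counts simulated for this comparison over 11024 genes, the test recovered 59 of the 100 genes given a 2-fold change and 92 of the 100 given a 4-fold change, with 12 calls among unchanged genes. With 2 libraries a group, 2 KO against 2 WT values cannot reach a permutation p below 0.333.

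The 45 gene lists and the comparison were chosen with earlier results of these data known, so no list is independent evidence of its direction. Lists are given by their counts and median, with no test of the list. The rule for named genes took Prmt5, in each direction the 15 most changed called genes whose mean reached 5 CPM and whose groups did not overlap (leaving out unnamed gene models, symbols ending in -ps and sex-linked genes), from each list the 6 members of lowest p, and any member of the methylosome, arginine methyltransferase, globin, heme, erythroid factor, Bcl2, structural RNA, sex-linked and marker lists. Some genes of the rule are not reported here, and genes described from outside it were chosen after their values were seen.

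Alternatives were RLE normalisation, factors over protein-coding genes, globins removed, no filter on low counts, DESeq2 1.42.0, limma-voom (limma 3.58.1) without and with the mouse as a random effect, the 4 Ter119pos libraries alone, the replicate letter as a block, removal of a lowess trend (span 0.3) on transcript length or GC content in each library, and each library left out. Promoter windows came from the RefSeq table.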

Additional observations from a re-analysis of the deposited data

How the results depend on the processing

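Over the 15 alternatives, the genes called higher numbered 3221 to 4292 and those called lower 3672 to 4691, all within 1.5 times the counts reported, and Prmt5 stayed called, at log2 fold changes of -2.11 to -1.68. Leaving out each library in turn moved the ratio of structural RNA shares between 5.59 and 5.81. With protein-coding counts as the denominator the ratio of globin shares turned from 0.698 to 1.18, and that of mitochondrial messenger RNAs from 0.695 to 1.18. Between KO and WT the replicate letters are different mice, so by the labels they pair nothing between the genotypes. The deviations of the letter A libraries of KO and WT had a correlation of -0.029. Across fractions, mice 1, 2 and 4 each gave both a Ter119pos and a Ter119neg library. The main fit took these libraries as independent. With the mouse as a random effect (consensus correlation 0.166), limma-voom called 3616 genes higher and 4352 lower. With the letter as a replicate block, 3838 genes were called higher and 4535 lower. In the 4 Ter119pos libraries alone, filtered and normalised without the Ter119neg libraries, 3987 were called higher and 3672 lower. Prmt5 there had a log2 fold change of -1.71. Among the named genes, 190 of the 199 called kept call and direction throughout, and 11 of the 24 not called were called under no alternative. Many of the named genes had been picked for a large change or a low p in the main fit. The number that stayed called is therefore no independent measure of stability. With a library left out in turn, Xist ranged from -0.60 (without KO library B) to 8.27. The cause of the differences between settings was not tested. In the simulated counts, with 2 libraries a group, 59 of the 100 genes changed 2-fold were recovered. Only these and 100 genes changed 4-fold differed there, among 11024. In the real data 54.2% of genes were called, so the share missed there is not known from the simulation. A gene that did not pass the test is not shown to be unchanged.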

Other observations

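A stretch of GRCm38 chromosome 14 from the start of Slc25a37 (69241848) to the end of Loxl2 (69695834) was picked out after its values were seen. Of 17 gene models tested there, 16 were called lower in KO and none higher (edgeR adjusted p under 0.05), beside 29.3% called lower over all genes. The ends of the stretch were set with these values known. Tnfrsf10b, the p53 death gene described above, lies beyond Loxl2, at 69767472 to 69784411, and was called higher (log2 fold change 6.47). Gm28049, a protein-coding model, was at 0.560 and 1.04 CPM in KO and 397 and 353 CPM in WT, and Gm27177, an antisense model, at 0.210 and 0.259 CPM in KO and 468 and 397 CPM in WT. Gm38378 and Gm37513 had the same values as each other, 0 counts in both KO libraries and 53.1 and 42.7 CPM in WT, as had Gm20236 and Gm37094, at 63.0 and 36.1 CPM in KO and 594 and 421 CPM in WT. Equal values of separate models show that reads were shared between copies, so levels of single models are uncertain, those of Entpd4 (-2.97) and Slc25a37 (-1.40) included. Prmt5 lies on the same chromosome, at 54507187. The cause was not tested. All counts given above include these genes.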
